A study of Arabidopsis thaliana with 6 samples.

Results

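BZIP60 and the co-chaperones ATERDJ2B and ATERDJ3B are genes of protein folding in the endoplasmic reticulum (ER) of Arabidopsis thaliana. They were taken by gene symbol, each on the probe set that the platform annotation gives to it alone, and they make up 3 of the 13356 genes so named and 3 of the 22746 probe sets tested. The 6 Affymetrix arrays were made from mature rosette leaves of the triple mutant mlo2 mlo6 mlo12, with mutations in 3 genes of the MLO family of membrane proteins, and of wild type (WT). Plants of both genotypes grew under normal conditions, with no pathogen or ER stress agent named in the labels, and leaves were taken 5, 6 or 7 weeks after sowing. Each combination of genotype and age had 1 array, and the labels do not say how many plants it stands for. Every p-value thus rests on the spread among these arrays, which may be technical. In a fit that only adds genotype and age, this spread also holds any change of the genotype difference between ages. MLO2, MLO6 and MLO12 each lack a probe set of their own in the annotation used, and no check of the labels by these genes was made.

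When unfolded proteins gather in the ER, plant cells raise the transcripts of ER chaperones, a programme called the unfolded protein response. BZIP60 is a membrane-anchored transcription factor of this response: the RNA-splicing enzyme IRE1 cuts its messenger, and the new reading frame gives a factor that enters the nucleus. BZIP28 and BZIP17 form the other branch, in which the factor moves to the Golgi and is cut free by proteases. ERdj proteins carry a J domain, with which they bring client proteins to BiP, the HSP70 chaperone of the ER. ATERDJ2B and its paralog ATERDJ2A resemble yeast Sec63, which acts at the protein import channel, whereas ATERDJ3B works in a complex with SDF2 and BiP that the leaf immune receptor EFR needs for its accumulation. Secretion of defence proteins in leaves draws on this folding machinery. A probe set gives 1 summary value per gene, which does not tell spliced from unspliced BZIP60 messenger.

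The first principal component over all probe sets held the 5-week arrays at one end, at -42.5 for WT and -40.9 for the mutant, and the 6-week WT array at the other, at 45.2. The 6-week mutant array was at 2.17 and the 7-week arrays of WT and mutant at 16.4 and 19.6. The 6-week arrays thus lay farther apart than the pair of either other age. Mean correlations of an array with the other 5 were lowest for the 6-week WT array, at 0.970, then 0.975 for both 5-week arrays, and at most 0.982. The mutant minus WT difference at 6 weeks and the counts drawn from it cannot be had without the 6-week WT array. Of 14 leaf markers 4 were measured, the Calvin cycle and photosystem genes RCA, PRK, SBPASE and PSAN, and their mean log2 value lay between 11.1 in the 6-week WT array and 11.8 in the 5-week mutant array. Of 11 markers of other organs and cell types only FMA of guard cells and PYK10 of roots were measured. Their mean was 3.0 to 3.32 in all 6 arrays, below the array medians of 3.8 to 3.87. FMA by itself was above the array median at 5 weeks, at 4.06 in WT and 3.94 in the mutant. In a leaf sample, more cells of a kind and more RNA per cell cannot be told apart.

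BZIP60 (AT1G42990) was higher at 6 and 7 weeks than at 5 weeks in both genotypes. From the youngest to the oldest plants, the WT arrays gave log2 values of 7.76, 8.63 and 8.63. The mutant arrays gave 7.86, 9.05 and 8.80. Both 5-week arrays thus lay below all 4 later ones, and the ranges of the genotypes overlapped; in 24.1% of all probe sets both 7-week arrays were above both 5-week ones, and in 8.92% the genotype ranges were apart. The step of 0.77 between the higher 5-week and the lowest later array was larger than the spread of 0.15. This spread is the SD of the fit with genotype and age after limma's moderation of the variance. The 5-week arrays of the genotypes, 0.10 apart, did not differ beyond it, nor did the later WT arrays. Averaged over genotypes, BZIP60 was 0.91 ± 0.15 (SE, log2) higher at 7 than at 5 weeks, which is 1.87-fold. This missed the threshold of an adjusted p of 0.05 (limma, adjusted p = 0.0959). The shares of all probe sets were 0% past that threshold and 16.2% with an unadjusted p under 0.05. The changes were 0.87 in WT and 0.94 in the mutant. Without the 6-week arrays, which enter only the error of this estimate, the adjusted p in limma was 0.0273, and 7.72% of all probe sets passed. That fit has 1 residual degree of freedom. With all 6 arrays the adjusted p was 0.124 with limma-trend and 0.481 without limma's moderation of the variance, so passing depended on the fit.

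ATERDJ2B (AT4G21180) ran the opposite way. Its log2 value in WT was 5.77, 4.40 and 4.32 at 5, 6 and 7 weeks. In the mutant the values were 5.94, 5.09 and 4.82. The 5-week arrays were the highest in both genotypes, and both later mutant arrays lay above both later WT arrays. Of all probe sets 25.7% had both 7-week arrays below both 5-week ones. Neighbouring levels in this order differed by more than the spread of 0.17, except the 5-week arrays, 0.17 apart, and the later WT arrays, 0.08 apart. At 7 weeks the gene was at -1.29 ± 0.17 (SE, log2) relative to 5 weeks, a 2.45-fold lower level (limma, adjusted p = 0.0901), with -1.46 in WT and -1.13 in the mutant. An estimate as low was found in 1.04% of all probe sets, and in 1.95% of the brighter ones, those with a mean level at or above the median. The adjusted p in limma was 0.0219 without the 6-week arrays and 0.0485 with the dim probe sets left out, where 2.19% of the remaining probe sets passed. With limma-trend it was 0.0543 and without moderation of the variance 0.491, so here too passing depended on the fit.

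**Figure D1:**
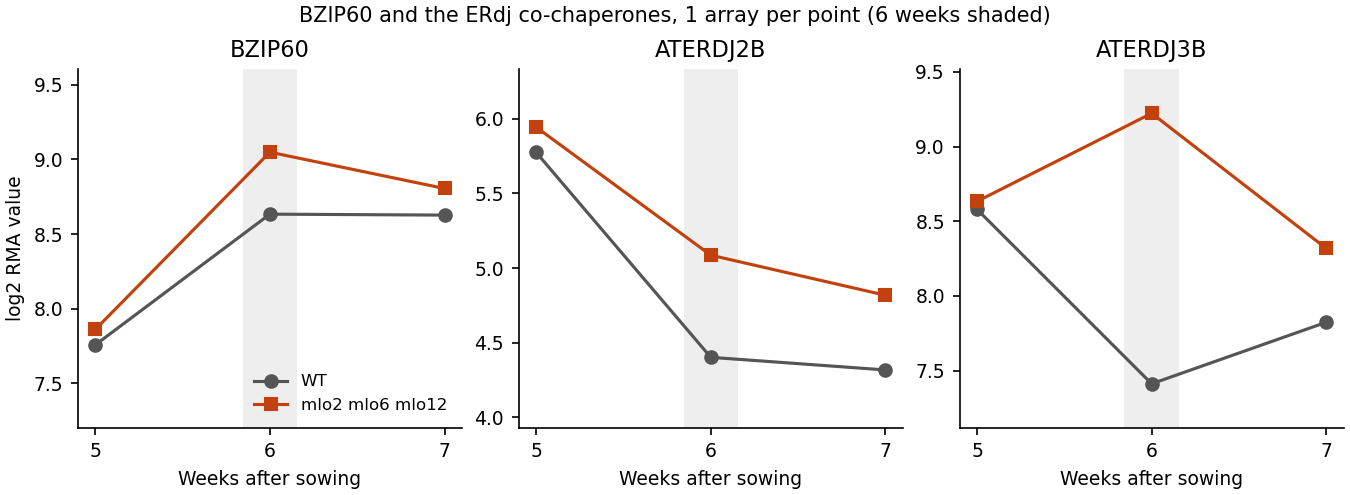
log2 RMA values (vertical axis, each panel spanning the same height) of BZIP60, ATERDJ2B and ATERDJ3B against weeks after sowing, with 1 array per point, WT as grey circles, the mutant as orange squares and the 6-week pair shaded. The mutant point is above the WT point at each age, by 0.05 to 0.17 at 5 weeks, and the widest gap is that of ATERDJ3B at 6 weeks, 1.81.

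The paralog ATERDJ2A, which shares the Sec63-like role, did not share this course. WT gave 6.33, 6.05 and 6.67 from 5 to 7 weeks, and the mutant 6.47, 6.74 and 6.80. It was at 0.33 ± 0.19 (SE, log2) at 7 relative to 5 weeks (limma, adjusted p = 0.516), with an estimate above 0 where that of ATERDJ2B was below 0. The difference between the paralogs was not tested. These 2 genes and ATERDJ3B were the only J-domain genes that the annotation names as such on a probe set of their own.

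Quality controls also differed between the early and later arrays, and between the 6-week arrays. For 25S rRNA, WT gave 7.51, 4.08 and 3.87 from 5 to 7 weeks, and the mutant 6.59, 5.39 and 5.70. Like ATERDJ2B it was highest at 5 weeks and higher in the mutant at 6 and 7 weeks. The poly-A spike-in controls averaged 4.03, 5.16 and 5.20 in WT; the mutant averages were 4.21, 4.46 and 4.84. They were lowest at 5 weeks, as BZIP60 was. At 6 weeks 25S rRNA was higher and the poly-A controls lower in the mutant than in WT. Their part in the age differences and in the 6-week differences of ATERDJ3B and the ER lists was not tested, and leaf age cannot be told apart from anything else that the arrays of one age have in common.

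Of the 3 genes, ATERDJ3B (AT3G62600) differed most between the genotypes at 6 weeks, but not at 5 or 7 weeks. Its log2 value in WT was 8.58, 7.41 and 7.82 at 5, 6 and 7 weeks. In the mutant it was 8.63, 9.22 and 8.32. The 6-week arrays were thus the lowest and the highest of all 6, and at 5 weeks the genotypes were 0.05 apart. In the order of levels, the only gaps between neighbours above the spread of 0.44 were 0.49 and 0.59. The first lay between the 7-week arrays of WT and mutant, the other between the 5-week and 6-week mutant arrays. The opposed 6-week arrays themselves widen this spread, so it is not a measure of array noise alone. Without limma's moderation of the variance the spread was 0.65, and neither gap was above it. At 7 relative to 5 weeks the gene was at -0.54 ± 0.44 (SE, log2, with adjusted p = 0.692 in limma). Without the 6-week arrays, which enter only the error of this estimate, it was at -0.54 ± 0.16 (limma, adjusted p = 0.118). At 6 weeks the mutant was 1.81 (log2) above WT, which is 3.51-fold, and at 7 weeks 0.49, which is 1.41-fold. A difference of this size or higher at 6 weeks was found for 46 of the 22746 probe sets, 0.202%, where 2.96% were at least 2-fold higher in the mutant. Among the brighter probe sets these shares were 0.396% and 5.69%. With 1 array on each side there is no test at a single age.

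Both 6-week arrays departed from the neighbouring ages of their genotype in ATERDJ3B. The 6-week value was at -0.79 relative to the mean of 5 and 7 weeks in WT and at 0.75 in the mutant. The difference between these shifts was 1.54 ± 0.28 (SE, log2) in a model that lets the genotype difference at 6 weeks be its own (limma, adjusted p = 0.155). No probe set passed in that comparison (0%), while 10.5% had an unadjusted p under 0.05 with a positive estimate, 7.44% with a negative one, 18% in all. The same estimate was 0.27 ± 0.22 for BZIP60 (adjusted p = 0.596 in limma) and 0.35 ± 0.25 for ATERDJ2B (adjusted p = 0.554 in limma). For these genes the 6-week shifts had the same sign in both genotypes, 0.44 in WT and 0.72 in the mutant for BZIP60, and -0.64 and -0.29 for ATERDJ2B. Averaged over genotypes, the 6-week level relative to the other ages was 0.58 ± 0.13 for BZIP60, -0.47 ± 0.15 for ATERDJ2B and -0.02 ± 0.38 for ATERDJ3B (limma, adjusted p = 0.355, 0.398 and 0.99), where 0% passed among all probe sets, with 11.4% under an unadjusted p of 0.05. Without the 6-week WT array the fit returns the mutant shifts alone, 0.72, -0.29 and 0.75. That of ATERDJ3B thus differs in sign from the average, because its WT and mutant shifts are opposed.

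All 3 genes were higher in the mutant at every age, as were 12.2% of all probe sets. The genotype comparison asked which transcripts differ between mutant and WT over the 3 ages. Averaged over ages, the mutant was 0.79 ± 0.36 (SE, log2) above WT for ATERDJ3B, 0.45 ± 0.14 for ATERDJ2B and 0.23 ± 0.12 for BZIP60. None passed (limma, adjusted p = 0.78, 0.754 and 0.786), nor did any other probe set (0%), and 6.52% of all had an unadjusted p under 0.05. ATERDJ2B was among them and the other 2 genes were not. The estimate for ATERDJ3B fell to 0.27 ± 0.16 without the 6-week WT array, which leaves the 5- and 7-week pairs to set it. Under the same omission ATERDJ2B was at 0.33 ± 0.15 and BZIP60 at 0.14 ± 0.13. The adjusted p-values in limma were then 0.637, 0.533 and 0.79.

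The change of the genotype difference from 5 to 7 weeks was also small against its error. It was estimated at 0.44 ± 0.91 (SE, log2) for ATERDJ3B, 0.33 ± 0.63 for ATERDJ2B and 0.07 ± 0.72 for BZIP60, each with an adjusted p of 1 in limma. Here 0% passed, and 1.02% were under an unadjusted p of 0.05. This fit draws a straight line over age in each genotype, so departures of the 6-week arrays from it add to the error. The error is thus not a measure of array spread alone. With age as a factor the estimates were the same. Their SE was then lower for BZIP60, at 0.38, and for ATERDJ2B, at 0.40, but not for ATERDJ3B, at 0.98.

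The wider ER folding pathway was read from 6 lists with 85 entries, of which 29 genes, the members included, had a probe set of their own. The BiP genes, SDF2, the IRE1 genes and all 12 entries for N-glycosylation were among the 56 with none in the annotation used, as were all 7 entries of a further list for cytosolic heat shock. At 5 weeks 14 of the 29 were above WT, with a median mutant minus WT difference of -0.02 (log2). At 6 weeks 26 of 29 were above WT, with a median of 0.59. By 7 weeks it was 20 of 29, with a median of 0.08. The medians over all probe sets were -0.02, -0.03 and -0.02, and 46.6%, 46.8% and 46.0% of them were above WT. Brighter probe sets stood higher at 6 weeks as a whole: among the 11373 with a mean at or above the median, 59.1% were above WT and the median was 0.13. The 26 ER list genes in that brighter set had 25 members above WT and a median of 0.66. The leaf markers moved the same way, with 4 of 4 above WT at 6 weeks, a median of 0.24 and the highest difference, 0.89, in SBPASE. Their part in the ER list values was not tested.

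**Figure D2:**
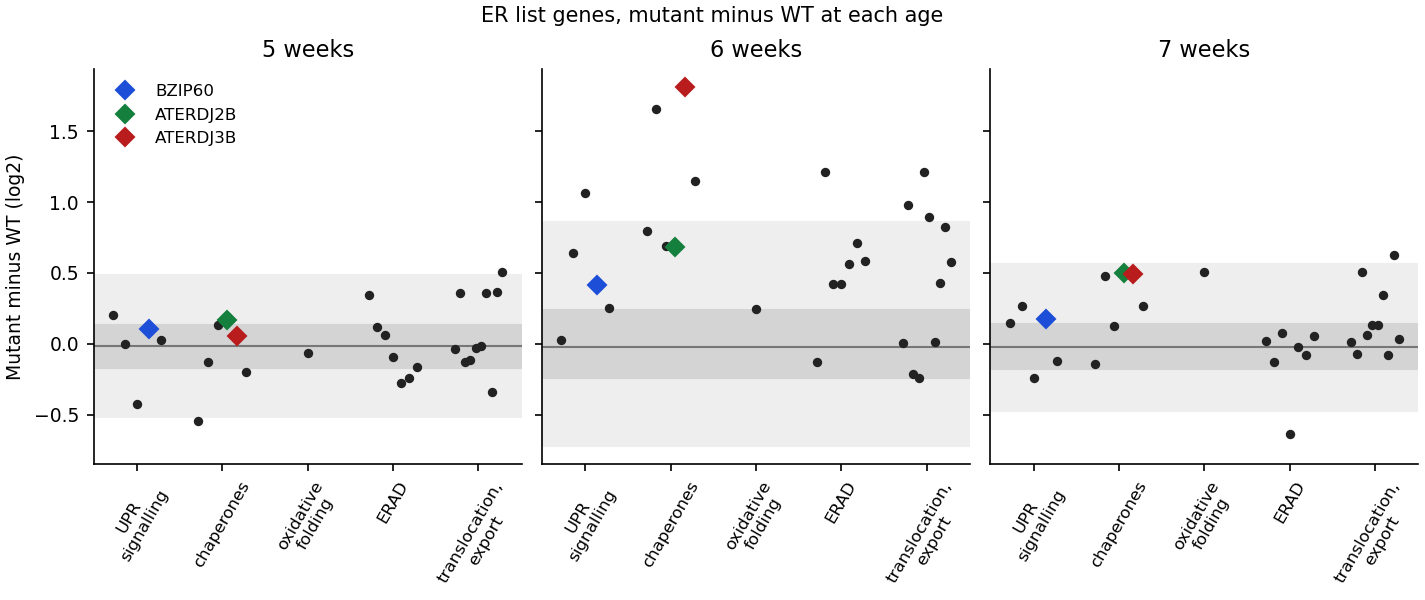
Mutant minus WT difference (log2) of the 29 measured ER list genes at 5, 6 and 7 weeks, with 1 point per gene, ordered by list along the horizontal axis, and BZIP60, ATERDJ2B and ATERDJ3B as coloured diamonds. The grey line is the median of all 22746 probe sets, the dark band their 25th to 75th percentiles and the light band their 5th to 95th. At 6 weeks 26 points are above 0, and the highest is ATERDJ3B at 1.81.

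At 6 weeks 6 of the 29 were at least 2-fold higher in the mutant, all 6 among the brighter probe sets, where 2.96% of all probe sets and 5.69% of the brighter ones were. At least 2-fold lower were 0 of 29, against 1.97% of all and 3.66% of the brighter. At 5 and at 7 weeks 0 of 29 differed at least 2-fold, as 1.31% and 1.85% of all probe sets did. In no list did a gene pass for genotype, with adjusted p-values in limma of 0.69 or more. Averaged over ages, 26 of 29 had an estimate above 0 with a median of 0.23. All probe sets had 43.7% above 0 and a median of -0.03, and the brighter ones 54.5% and 0.03. Without the 6-week WT array it was 18 of 29 with a median of 0.07, against 45.3% and -0.02 over all probe sets. The estimates below 0 were those of DER2.1, AT2G22425 and SEC31A (AT1G18830), at -0.10, -0.10 and -0.01; they are named after their values were seen.

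Among the factors of the response, BZIP28 came closest to ATERDJ3B in its 6-week pair. WT gave 6.21, 5.51 and 6.44 from 5 to 7 weeks and the mutant 5.78, 6.58 and 6.21, so the mutant was below WT at 5 and 7 weeks and 1.06 above it at 6 weeks. The 6-week difference exceeded that of the other ages by 1.40 ± 0.23 (SE, log2; limma, adjusted p = 0.155). BZIP17, its relative, differed from WT by 0.00, 0.64 and 0.27 at the 3 ages. The protease S1P differed by 0.03, 0.25 and -0.12, and AT4G20310, listed as the protease S2P, by 0.20, 0.03 and 0.14. All 5 measured genes of this list, BZIP60 included, were above WT at 6 weeks, and 3 of 5 at 7 weeks.

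The chaperone list held the widest 6-week gaps: all 6 measured members were above WT, with a median of 0.97. CRT1b, a calreticulin that folds glycoproteins, was at 9.14, 8.48 and 8.71 in WT; the mutant values were 8.94, 9.63 and 8.97. Its difference at 6 weeks was 1.15, and it exceeded that of the other ages by 1.12 ± 0.28 (SE, log2; limma, adjusted p = 0.172). AT5G07340 differed by -0.13, 1.66 and 0.48 at 5, 6 and 7 weeks, AT4G16660 by -0.54, 0.80 and -0.14, and ATERDJ2A by 0.14, 0.69 and 0.12. By age, 5 of these 6 genes had estimates below 0 at 7 relative to 5 weeks, with a median of -0.41, against 48.6% of all probe sets above 0. ATERDJ2A was the exception, and ATERDJ2B had the lowest estimate of the 29 ER genes. Of the oxidative folding genes only PDIL5-1, a protein disulfide isomerase, was measured, with differences of -0.06, 0.24 and 0.50.

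In ER-associated degradation, which returns misfolded proteins to the cytosol, 6 of 7 genes were above WT at 6 weeks, with a median of 0.56, and 3 of 7 at 7 weeks. AT4G29960 differed by 1.21 at 6 weeks, the lectin OS9 by 0.71, the ubiquitin-conjugating enzyme UBC32 by 0.59, and the derlins DER1 and DER2.2, channel proteins of this pathway, by 0.42 and 0.56. AT1G73570 was at -0.13. Of 10 measured genes for import into and export from the ER, 8 were above WT at 6 weeks, with a median of 0.50. AT2G34250 differed by 1.21 at that age, AT1G29310 by 0.98, AT3G20920 by 0.89, AT5G27430 by 0.83 and SEC22, a SNARE of ER-to-Golgi traffic, by 0.57. AT5G27430 was above WT at all ages, by 0.37 and 0.63 at 5 and 7 weeks, with an estimate of 0.61 ± 0.13 (SE, log2; limma, adjusted p = 0.69). AT3G60540 differed by 0.36, 0.01 and 0.35.

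The opposite 6-week shifts of ATERDJ3B recurred in the lists. In 18 of the 29 ER genes the 6-week array was below the mean of the other ages in WT and above it in the mutant, as in 22.6% of all probe sets and 28.0% of the brighter ones. The 6-week WT array was the lowest of the 6 for 16 of 29 genes, against 23.6% of all probe sets and 35.3% of the brighter. The 6-week mutant array was the highest for 16 of 29, against 12.6% of all and 13.5% of the brighter. The WT shift was also below 0 in 4 of 4 leaf markers. The median shift was -0.28 in WT and 0.25 in the mutant, where those of the brighter probe sets were -0.14 and 0.01. Of the 29 genes 14 had an unadjusted p under 0.05 for the difference between the shifts, all 14 with a positive estimate, and 0 passed after adjustment. All 14 were among the brighter probe sets, of which 19.5% had such a p with a positive estimate, against 10.5% of all. The mutant shift alone does not use the 6-week WT array, and it was above 0 in 22 of 29 genes, against 52.7% of all probe sets and 51.6% of the brighter. Without the 3 members, the counts of 18, 16, 16, 14 and 22 of 29 became 17, 15, 14, 13 and 20 of 26.

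**Figure D3:**
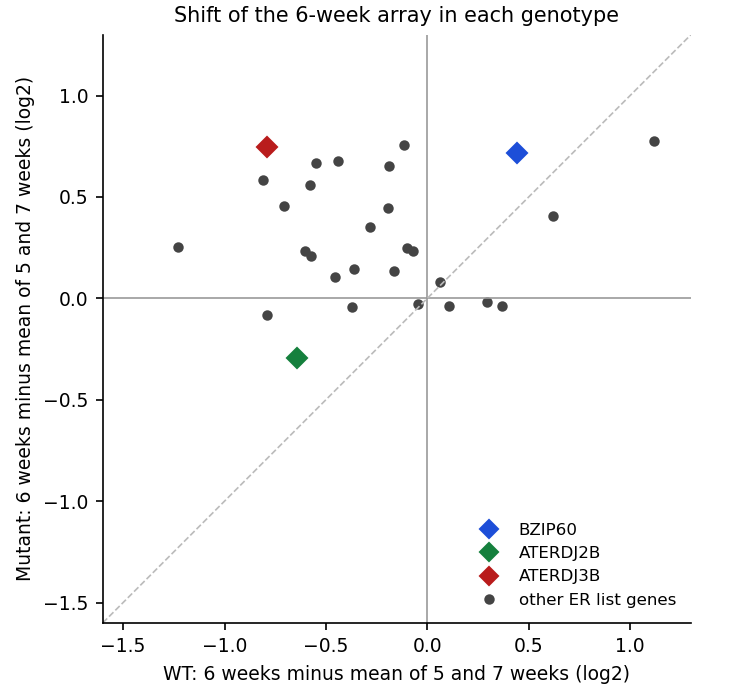
Value at 6 weeks minus the mean of 5 and 7 weeks (log2) in the mutant (vertical axis) against WT (horizontal axis) for the 29 measured ER list genes, with BZIP60, ATERDJ2B and ATERDJ3B as diamonds and equal shifts on the dashed line. The upper left field holds 18 genes, ATERDJ3B among them at -0.79 and 0.75, while BZIP60 is above 0 and ATERDJ2B below 0 on both axes.

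Set among 22 genes with bZIP in their annotation, BZIP60 had the highest age estimate, 0.91. The median of these genes was 0.02, with 12 of 22 above 0. Next to it was BZIP53, a factor of amino acid metabolism, at 0.57 ± 0.15 (SE, log2; limma, adjusted p = 0.172), and at the other end BZIP61 at -1.31 ± 0.27 (limma, adjusted p = 0.128). For genotype BZIP53 had the highest estimate, 0.53 ± 0.12, with the mutant above WT by 0.38, 0.72 and 0.49 (limma, adjusted p = 0.69). BZIP17 was at 0.30 ± 0.16, BZIP61 at -0.37 ± 0.22 and AT2G12900, also known as bZIP33, at -0.20 ± 0.14. At 6 weeks 12 of the 22 were above WT, with a median of 0.02, and 2 were at least 2-fold higher, BZIP28 and AT2G21230. The latter, on no ER list and named after its values were seen, differed by 1.62 at that age and had shifts of -1.65 in WT and 0.33 in the mutant. The difference of its shifts, 1.98 ± 0.26 (SE, log2; limma, adjusted p = 0.155), was above the 1.54 of ATERDJ3B.

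Over the 6 arrays the levels of BZIP60 and ATERDJ2B had a Pearson's r of -0.75, those of ATERDJ2B and ATERDJ3B 0.66, and those of BZIP60 and ATERDJ3B -0.05, as a description. The genes of likest pattern were different for each of the 3. Likeness was Pearson's r over the 6 arrays among 4017 probe sets of 1 gene with an SD of at least 0.3; with so few points that share arrays and ages, r near 1 is common and is given as a description. For BZIP60 they were AT1G02470 (r = 0.988), AT5G06370 (0.984), AT1G50740 (0.983), PRA1.A1, a prenylated RAB acceptor (0.976), and the methionine sulfoxide reductase MSRB9 (0.975), and 28 probe sets had r over 0.95. For ATERDJ2B 4 of the 5 were plastid-encoded: ndhI of the plastid NDH complex (0.996), rbcL, the large subunit of Rubisco (0.993), the ribosomal protein gene rpl16 (0.989) and accD of fatty acid synthesis (0.988), beside AT4G16155 (0.993). Of all candidates 87 had r over 0.95 with it. For ATERDJ3B they were AT1G21080 (0.985), AT3G14470 (0.983), AT4G29950 (0.979), AT5G66810 (0.973) and LPR2, a multicopper oxidase (0.972), with 18 over 0.95. None of these 15 genes was on the ER lists. Those lists hold 29 of the 13356 genes on probe sets of 1 gene, so an overlap was unlikely from the outset.

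**Figure D4:**
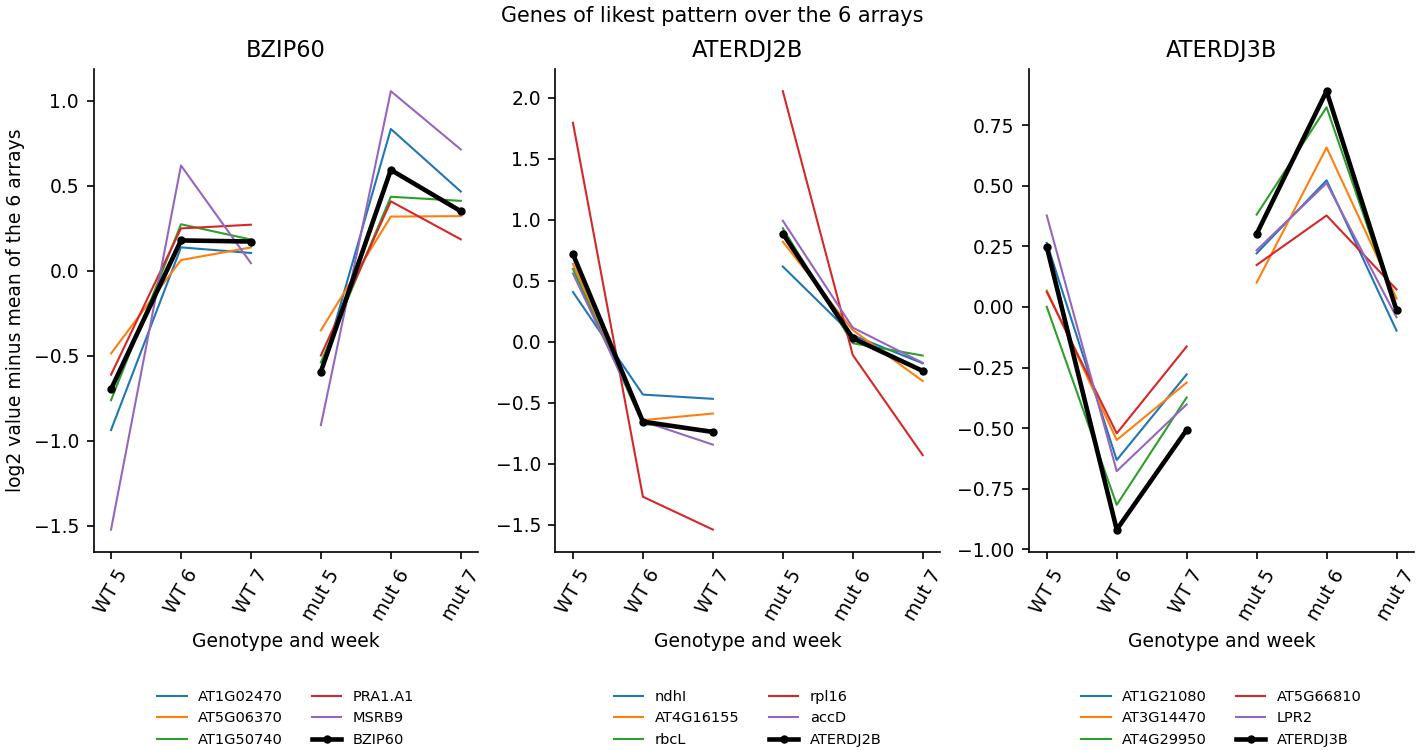
log2 value minus the mean of the 6 arrays (vertical axis) by genotype and week for BZIP60, ATERDJ2B and ATERDJ3B (thick black lines) and the 5 genes of highest Pearson's r with each (thin coloured lines), with vertical scales that differ between panels. BZIP60 and its neighbours are lowest at 5 weeks, ATERDJ2B and its neighbours highest at 5 weeks, and ATERDJ3B and its neighbours lowest in WT and highest in the mutant at 6 weeks.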

How the data were processed

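The deposited log2 values were computed by the authors with RMA, per the submitters' processing notes. RMA corrects background, applies quantile normalization and summarises the probes of a set; its version was not given in the sources used here. They ran from 1.72 to 13.4. RMA compresses dim probe sets and hides a change in total mRNA. The 64 control probe sets were set aside and 22746 tested with limma 3.58.1 in R 4.3.3, adjusting p over all of them by Benjamini-Hochberg at 0.05. Genotype, age (7 minus 5 weeks) and 6-week effects came from an additive fit of genotype and 3 ages (2 residual degrees of freedom), the change of the genotype difference with age from a fit with numeric age (2), and the genotype-by-6-weeks effect from the first model with its own term (1). The fits were tested on simulated data. Genes were named from the platform annotation (13513 probe sets with 1 gene), of which 13436 matched RefSeq entries of TAIR10.1. A gene with several probe sets was read from the one of highest mean. Lists, members and the named-gene rule (list members by smallest genotype p, up to 6 a list and 5 a family; the 5 likest patterns) were chosen with earlier results of these data known. Alternatives were limma-trend, no variance moderation, other scalings, a filter on dim probe sets, other age terms and leaving out arrays. The number of arrays limits the precision.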

Additional observations from a re-analysis of the deposited data

Results flagged for a closer look

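ATERDJ3B moved in opposite directions in the genotypes between neighbouring ages. From 5 to 6 weeks it changed by -1.17 (log2) in WT and by 0.59 in the mutant, and from 6 to 7 weeks by 0.41 in WT and by -0.90 in the mutant. Each change rests on 1 array per age and genotype, and these step differences were not tested by themselves. The related comparison of the 6-week pair with the other ages gave 1.54 ± 0.28 (SE, log2; limma, adjusted p = 0.155, and 0.0856 to 0.668 over its alternatives).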

How the results depend on the processing

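Over 165 alternative fits of the 15 tests on BZIP60, ATERDJ2B and ATERDJ3B, 154 kept the direction, 11 reversed and 7 newly passed the threshold. Many of the 154 could not reverse, so their number does not measure robustness. Limma-trend, no moderation, the filter on dim probe sets and other age terms leave the estimate as it is and change only its error. So does leaving out 6-week arrays for age and for genotype by age. The 7 were all for age: without either or both 6-week arrays (BZIP60 at 0.91 and ATERDJ2B at -1.29, with 1755 probe sets called in place of 0), and ATERDJ2B at -1.29 with the dim probe sets left out (249 called). Leaving out 1 of the 6-week arrays gives the same age and genotype fit as leaving out both. Limma-trend called 1 probe set for genotype, 258 for age and 42 for genotype by 6 weeks, and no moderation called 6 for the last, against 0 each. The 6-week effect of ATERDJ3B, -0.02, became 0.0065 with arrays shifted to the same median, and the 5-week ER list median, -0.02, became 0.0043 after a second quantile normalization, which put the 6-week one at 0.48.

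Leaving out 1 array at a time, age calls ran from 0 to 1755 and 6-week calls from 0 to 1591, the latter without the 6-week mutant array. The age effect ran from 0.81 to 1.0 for BZIP60, from -1.50 to -1.08 for ATERDJ2B and from -1.08 to 0.014 for ATERDJ3B, which turned without the 5-week WT array. The 6-week effect of ATERDJ3B ran from -0.79 to 0.75 and turned without any 1 of the WT arrays. Its ends are the WT shift and the mutant shift alone, since leaving out a 6-week array leaves 1 genotype at that age. The genotype-by-age change ran from -1.36 to 1.5 for BZIP60, from -0.96 to 1.62 for ATERDJ2B and from -1.14 to 2.02 for ATERDJ3B, turning without the 7-week WT or 5-week mutant array, the 5-week WT or 7-week mutant array, and either 5-week array, in that order. The cause was not tested. The genotype estimates kept their sign in all alternatives, at 0.14 to 0.30, 0.33 to 0.59 and 0.27 to 1.15. Genotype by 6 weeks could not be fitted with an array left out. Without a 5- or 7-week array no residual degree of freedom remains, and without a 6-week array the 6-week difference itself is missing. The labels give no replicate numbers, and age is a term of the model. At 6 weeks, a second quantile normalization turned the balance of probe sets at least 2-fold different from 674 higher and 448 lower to 509 and 576, while ATERDJ3B stayed higher in the mutant under both other scalings. The alternatives for single ages and for the ER lists were chosen after seeing the data.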
